A study of Mus musculus with 6 samples.

Results

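The genes of 10 macrophage scavenger receptors, Msr1, Marco, Cd36, Mrc1, Cd163, Scarb1, Scarb2, Stab1, Olr1 and Cd68, were examined in RNA-seq of mouse bone marrow mesenchymal stem cells (BMMSCs). They were taken by symbol, and all 10 were found among the 36870 distinct symbols of the deposited table. BMMSCs are the adherent cells that grow out of marrow flushed from femurs and tibias, here of C57BL/6 mice whose age the labels do not give. The 3 control libraries came from cells given a non-targeting siRNA according to the labels, whereas the RNA-sequencing methods call them vehicle-treated. The 3 siTet1/Tet2 libraries came from cells given siRNAs against Tet1 and Tet2 together, the enzymes that oxidize 5-methylcytosine in DNA. The labels give passage 2 and the methods passage 1, and no source says whether replicates were separate animals or separate wells, so p-values measure the spread between these libraries.

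Scavenger receptors are cell surface and lysosomal proteins that bind modified lipoproteins, bacterial surfaces, dying cells and other polyanionic material and carry it into the cell. They are grouped in lettered classes by structure: collagen-like trimers (class A), proteins with a membrane span at each end (class B), the mucin-like Cd68, the lectin-like Olr1, the giant Stab1 and the cysteine-rich Cd163. Mrc1, the mannose receptor, is a C-type lectin that takes up glycoproteins by the same route. Macrophages carry most of them, and fat cells, endothelium and liver cells carry some.

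Knockdown of Tet1 and Tet2 was accompanied by opposite changes within this group. Of the 9 genes expressed highly enough to be tested, 7 rose and 2 fell in the siTet1/Tet2 libraries (limma, Benjamini-Hochberg adjusted p below 0.05). Marco, Cd36, Cd163, Scarb1, Scarb2, Stab1 and Cd68 rose, and Msr1 and Mrc1 fell. Over all 13266 genes tested, 44.5% passed the same threshold, 14.7% as higher and 29.8% as lower. The lower share of all calls was 66.9% as deposited, and between 42.4% and 88.6% when the libraries were rescaled. Among the 1534 most abundant genes (mean of 50 RPKM or more, a limit chosen after the values were seen) 24.8% were higher and 28.9% lower. Only Marco of the 9 also passed an unadjusted p under 0.05 with a fold change over 2, as 6.58% of all genes tested did. The groups did not overlap in any of the 9 genes tested, 7 of them higher and 2 lower. Of all genes tested, 55.7% did not overlap, 19.8% as higher and 35.9% as lower. Olr1, which was not tested and lay at the lowest listed value in the controls, is left out of this count. The median log2 fold change of the 9 genes was 0.60, beside -0.09 over all genes tested. Values are RPKM (reads scaled by gene length and library total), and fold changes are on the scale of log2(RPKM + 1), which understates the change of low genes.

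**Figure D1:**
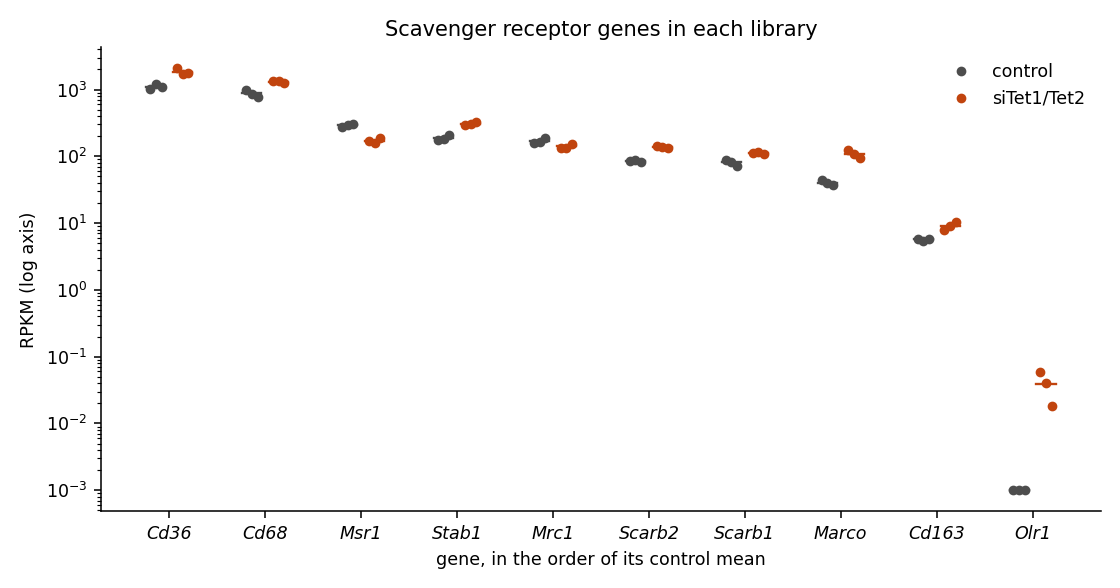
RPKM of the 10 scavenger receptor genes on a log axis, with 1 point for each library and a line at the mean of each group of 3. The siTet1/Tet2 points lie below the control points for Msr1 and Mrc1 and above them for the other 8 genes, and every control point of Olr1 stands at 0.001, the lowest value listed.

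The targeted genes were checked first. Tet2 was at 2.57, 4.08 and 3.71 RPKM in the 3 controls and 0.358, 0.238 and 0.202 RPKM after knockdown. Tet1 was barely detected, at 0.032, 0.098 and 0.05 RPKM against 0.001, 0.01 and 0.001 RPKM, and Tet3 was not called (log2 fold change 0.12, adjusted p = 0.508 from limma). The table gives no read totals. From the steps between low values the libraries were estimated to hold between 32300000 and 38600000 reads, although at these depths only 47.5% to 59.3% of low values came within 0.1 of a whole read. Across genes, Pearson's r was 0.992 to 0.997 for libraries of the same group and 0.949 to 0.969 for libraries of different groups.

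Although the cells are labelled as mesenchymal, macrophage markers were abundant in every library. By flow cytometry, a measure of protein, the paper examined BMMSCs of control mice and of mice lacking Tet1 and Tet2. It reports those cells as positive for CD73, CD90, CD105, PDGFR and Sca1 and as negative for CD45 and CD34. The common leukocyte gene Ptprc (CD45) was at 52.6 RPKM on average in the control group and 53.0 RPKM in the siTet1/Tet2 group, and the values of Emr1 (now Adgre1), a macrophage surface antigen, were 305 and 349.7 RPKM (adjusted p = 0.0624 from limma, and 0.0360 with the replicate block). The receptor gene Csf1r, which macrophages need to survive, was higher after knockdown, at 499 against 604 RPKM (adjusted p = 0.0173 from limma). Of the 20 macrophage markers listed, all were tested. Beside 14.7% higher and 29.8% lower over all genes tested, 8 of these markers (40.0%) were higher, 3 (15.0%) lower and 9 not called (median log2 fold change 0.20). Their summed RPKM ranged from 11457 to 14720 in the control libraries and from 19789 to 23168 in the siTet1/Tet2 libraries, a range led by Lyz2, the lysozyme gene, which rose from 4439 to 11321 RPKM, while Fcgr1, a high-affinity Fc receptor, fell from 109 to 27.8 RPKM. Of the 15 stromal markers tested, 11 were lower and 1 was higher (median log2 fold change -2.40), and the stromal sum went from a range of 3943 to 4622 RPKM to a range of 2278 to 2369 RPKM. Most of this sum was Spp1, at 2346 RPKM in the control group and 1967 RPKM in the siTet1/Tet2 group. Spp1 was not called (adjusted p = 0.0857 from limma), so the sum understates the fall of the 11 lower markers. Col1a1, the main chain of bone collagen, fell from 488 to 72.1 RPKM and Ly6a, the gene of the stem cell antigen Sca1, from 152 to 16.4 RPKM. Vcam1 was the stromal marker that rose, from 16.9 to 55.9 RPKM. Thy1, the gene of CD90, was at 0.061 and 0.059 RPKM. In these bulk libraries fewer cells of a type and less RNA per cell cannot be told apart.

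The class A receptors moved in opposite directions. Msr1, the macrophage scavenger receptor that binds acetylated and oxidized low-density lipoprotein, lies on chromosome 8 of GRCm38 from 39581685 to 39642673. It had 276, 290.3 and 310.3 RPKM in controls and 169, 159 and 189 RPKM after knockdown. Every siTet1/Tet2 library was well below the lowest control library. Its mean fell from 292 ± 17.2 to 172 ± 15.5 RPKM (SD, n = 3), a log2 fold change of -0.76 (95% interval -0.95 to -0.57, adjusted p = 0.000183 from limma). Marco, the collagen-like receptor with which macrophages bind unopsonized bacteria and particles, lies on chromosome 1 from 120474538 to 120505024. Its RPKM was 44.4, 40.0 and 36.8 in the control libraries and 123, 107 and 95.3 in the siTet1/Tet2 libraries. Marco had the largest change of the 9 genes tested, from 40.4 ± 3.83 to 108 ± 13.7 RPKM (SD, n = 3), a log2 fold change of 1.40 (95% interval 1.16 to 1.63, adjusted p = 2.88e-05 from limma). Within each library, which removes any common scaling, Marco stood at 0.161, 0.138 and 0.118 of the RPKM of Msr1 in the control group and at 0.725, 0.673 and 0.503 of it in the siTet1/Tet2 group. The mean ratio was 4.56-fold higher in the siTet1/Tet2 group. The groups did not overlap, which was fixed by the opposite changes of Marco and Msr1, each without overlap. An exact permutation test of 3 libraries against 3 cannot give a two-sided p under 0.1, so none is given for a single ratio.

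All 3 class B receptors rose. Cd36, which takes up oxidized low-density lipoprotein and long-chain fatty acids, is on chromosome 5 from 17781690 to 17888801. It measured 1008, 1209 and 1086 RPKM in controls against 2072, 1714 and 1782 RPKM after knockdown. It was the most abundant of the 10 genes in every library, and its mean rose from 1101 ± 101 to 1856 ± 190.0 RPKM (SD, n = 3), a log2 fold change of 0.75 (95% interval 0.48 to 1.02, adjusted p = 0.00124 from limma). By level Cd36 ranked between 21 and 28 among the genes tested in the control libraries and 14 in each siTet1/Tet2 library. Scarb1, on chromosome 5 from 125277087 to 125341094, encodes the receptor that exchanges cholesterol with high-density lipoprotein. Its RPKM was 87.7, 82.7 and 72.3 in the control libraries and 111, 116 and 108 in the siTet1/Tet2 libraries. This was the smallest of the increases, from 80.9 ± 7.82 to 112 ± 3.95 RPKM (SD, n = 3), a log2 fold change of 0.47 (95% interval 0.29 to 0.65, adjusted p = 0.00180 from limma). Scarb2 (LIMP-2), on chromosome 5 from 92441314 to 92506833, is the lysosomal member of the class, a main protein of the lysosome membrane. It was at 84.9, 87.8 and 81.3 RPKM in the 3 controls and 141, 140.4 and 132 RPKM after knockdown. The replicates lay close together in both groups, and Scarb2 rose from 84.7 ± 3.23 to 138 ± 4.88 RPKM (SD, n = 3), a log2 fold change of 0.70 (95% interval 0.56 to 0.83, adjusted p = 5.52e-05 from limma). The ratio of Scarb2 to Scarb1 within a library was between 0.969 and 1.12 in the control group and between 1.21 and 1.27 in the siTet1/Tet2 group, so Scarb2 gained on Scarb1 by 1.17-fold on average.

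**Figure D2:**
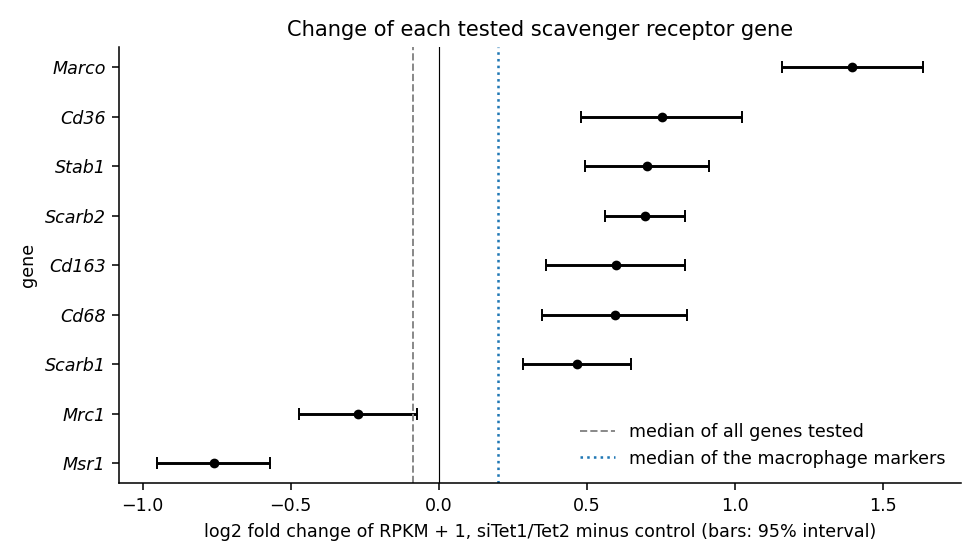
Log2 fold change of log2(RPKM + 1) of the 9 tested scavenger receptor genes, siTet1/Tet2 minus control, with the 95% interval from limma as bars. Marco stands at 1.40 and Msr1 at -0.76, and the dashed and dotted lines mark the medians of all genes tested (-0.09) and of the 20 macrophage markers (0.20).

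The receptors used as markers of macrophages and of their alternative activation did not move together either. Cd68, a heavily glycosylated protein of macrophage late endosomes, is on chromosome 11 from 69664213 to 69666153. It had 972, 873 and 779.6 RPKM in controls and 1354, 1349 and 1245 RPKM after knockdown. Its mean rose from 875 ± 96.0 to 1316 ± 61.3 RPKM (SD, n = 3), a log2 fold change of 0.59 (95% interval 0.35 to 0.84, adjusted p = 0.00247 from limma). The ratio of Cd36 to Cd68 overlapped between the groups, at 1.04 to 1.39 in the control libraries and 1.27 to 1.53 in the siTet1/Tet2 libraries. Stab1, on chromosome 14 from 31139013 to 31168641, encodes an endocytic receptor for acetylated low-density lipoprotein and matrix fragments that is also found on sinusoidal endothelium. Its RPKM was 173, 182 and 212 in the control libraries and 290.2, 304 and 329.7 in the siTet1/Tet2 libraries. Stab1 rose from 189 ± 20.5 to 308 ± 20.1 RPKM (SD, n = 3), a log2 fold change of 0.70 (95% interval 0.49 to 0.91, adjusted p = 0.000444 from limma). It shares 112 exon bases with Nt5dc2 on the opposite strand, a gene that also rose (log2 fold change 0.50, adjusted p = 0.00345 from limma), and whether the counting used strand is not given in the sources used here.

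Mrc1 (CD206), on chromosome 2 from 14229392 to 14332057, measured 158, 166 and 186 RPKM in controls against 132, 135 and 155 RPKM after knockdown. The highest siTet1/Tet2 library lay only slightly below the lowest control library. Its mean fell from 170.2 ± 14.2 to 141 ± 12.3 RPKM (SD, n = 3), a log2 fold change of -0.27 (95% interval -0.47 to -0.07, adjusted p = 0.0327 from limma), the weakest call of the 9. The call was lost without control replicate 2 or 3 or siTet1/Tet2 replicate 1 or 2, with adjusted p of 0.0750, 0.0510, 0.119 and 0.118, and also after median ratio scaling (adjusted p = 0.117) and quantile normalization (adjusted p = 0.166). Cd163, the receptor for the complex of haptoglobin and hemoglobin, lies on chromosome 6 from 124304656 to 124330527. It was far less abundant, with 5.86, 5.45 and 5.82 RPKM in controls and 8.01, 9.09 and 10.5 RPKM after knockdown. Cd163 rose from 5.71 ± 0.223 to 9.19 ± 1.24 RPKM (SD, n = 3), a log2 fold change of 0.60 (95% interval 0.36 to 0.83, adjusted p = 0.00199 from limma). Set against Mrc1 in the same library, Stab1 went from 1.11 ± 0.0281 to 2.19 ± 0.0617 and Cd163 from 0.0337 ± 0.00295 to 0.0652 ± 0.00407 (SD, n = 3). Neither ratio could overlap, since Stab1 and Cd163 rose and Mrc1 fell, each without overlap. Msr1, which fell with Mrc1, fell by more, since the ratio of Msr1 to Mrc1 went from 1.72 ± 0.0431 to 1.23 ± 0.0498 (SD, n = 3) without overlap.

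Olr1 (LOX-1), the oxidized low-density lipoprotein receptor of endothelium and activated macrophages, was not expressed highly enough to be tested. It lies on chromosome 6 from 129485244 to 129507165, and it was listed at the lowest value of 0.001 RPKM in all 3 controls and at 0.058, 0.041 and 0.018 RPKM after knockdown. With the estimated depths and its longest annotated transcript the latter come to an estimated 7.87, 5.65 and 2.28 reads. A count of 0 allows up to 3 reads in a library, which would be 0.0226 to 0.026 RPKM in the control libraries, so the third siTet1/Tet2 library lay within that limit. No fold change is given, since the control values are at the lowest one listed.

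**Figure D3:**
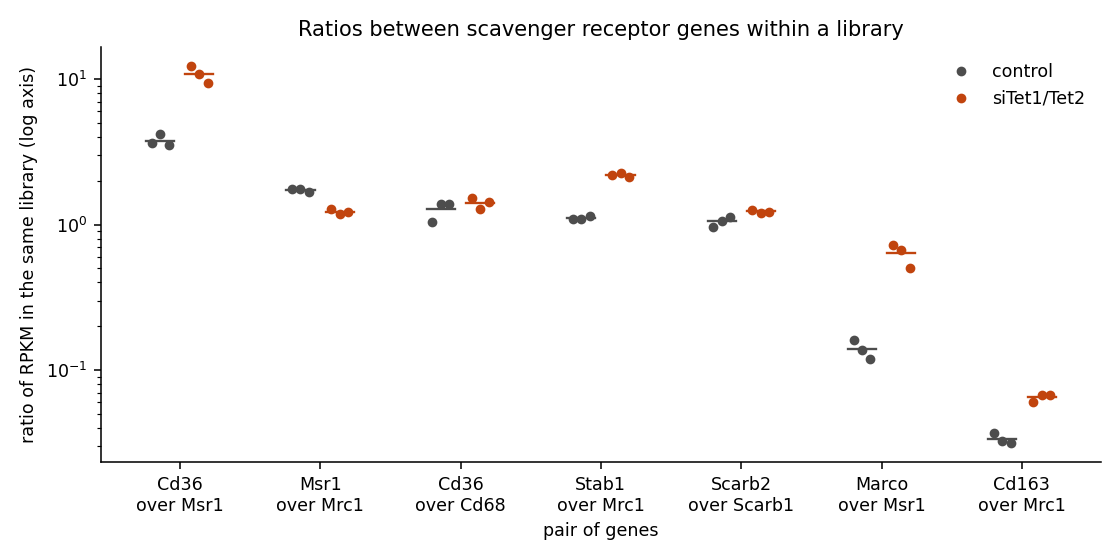
Ratio of the RPKM of 2 scavenger receptor genes in the same library, on a log axis, with 1 point for each library and a line at the group mean. The groups overlap for Cd36 over Cd68 and for none of the other 6 ratios. The ratios of Marco and Cd36 over Msr1 and of Stab1 and Cd163 over Mrc1 set a gene that rose over a gene that fell. As neither gene of such a pair overlapped between the groups, these ratios could not overlap. The largest separation is that of Marco over Msr1, 0.139 against 0.633 on average.

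RPKM is scaled by gene length, so levels can be set side by side between genes. In the control libraries the order of the mean RPKM was Cd36, Cd68, Msr1, Stab1, Mrc1, Scarb2, Scarb1, Marco, Cd163 and Olr1. The neighbours Stab1 and Mrc1, and Scarb2 and Scarb1, overlapped in that order. In the siTet1/Tet2 libraries Stab1 took the place above Msr1 without overlap, and the neighbours that overlapped were Mrc1 and Scarb2, and Scarb1 and Marco. Marco moved from ranks 1900 to 2183 among all genes tested to ranks 506 to 682. The 10 genes together made up 0.650% to 0.704% of the summed RPKM of a control library and 0.919% to 1.00% of that of a siTet1/Tet2 library. Cd36 and Cd68 alone gave 67.3% to 70.9% of that sum in the control libraries and 74.8% to 77.9% in the siTet1/Tet2 libraries.

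Because macrophage markers as a whole were slightly higher after knockdown, the 9 genes were also compared relative to them. Each library was scaled by the median ratio of the 19 macrophage markers that averaged 1 RPKM or more, an alternative chosen after seeing the data. On that scale the same 7 genes were higher and the same 2 lower. Of all 13266 genes tested, 1030 were higher and 5980 lower on it, against 1953 and 3952 as reported. Marco stood at a log2 fold change of 1.21, Cd36 at 0.56, Stab1 at 0.51, Scarb2 at 0.50, Cd163 at 0.43, Cd68 at 0.40 and Scarb1 at 0.27. Msr1 stood at -0.95 and Mrc1 at -0.47 (adjusted p = 0.00634 from limma). On this scale the median of all genes tested was -0.23. When the libraries were instead centred on the median level of these markers, Cd163 and Scarb1 lost their calls, at log2 fold changes of 0.39 and 0.24 (adjusted p = 0.210 and 0.239 from limma). Of all genes tested, 421 were then called higher and 3264 lower.

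The genes whose level followed that of Msr1 most closely over the 6 libraries were Taf1d, Eda2r, Slfn9, Pabpc1 and Frmd4a, with Pearson's r of log2(RPKM + 1) between 0.9985 and 0.9997. This is a description over libraries that share a difference between groups, and 1657 of the 11066 genes compared had an r over 0.95. None of the other scavenger receptors was among the 5, and Pabpc1, a poly(A)-binding protein gene, came closest to it in level, at 300.3 RPKM in the control group and 213 RPKM in the siTet1/Tet2 group.

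Of 22 other receptors of the scavenger classes, 20 were in the table and 17 were tested, and 5 rose, 7 fell and 5 were not called (median log2 fold change -0.03). This is 29.4% higher and 41.2% lower, beside 14.7% and 29.8% of all genes tested and 24.8% and 28.9% of the abundant genes. The number that rose was 1 without the filter on low values, 2 without control replicate 1, 3 without control replicate 2, 2 with the marker median ratio and 1 when centred on the markers. The number higher over all genes was 1230 of 36870 without that filter. Of 13266 genes it was 1830 without control replicate 1, 1484 without control replicate 2, 1030 with the marker median ratio and 421 when centred. Stab2, the paralog of Stab1 and a hyaluronan receptor, rose from 1.02 to 2.17 RPKM (log2 fold change 0.65, adjusted p = 0.000403 from limma). Mrc2 (Endo180), the collagen-binding paralog of Mrc1 in fibroblasts, fell from 24.1 to 4.36 RPKM (log2 fold change -2.25, adjusted p = 7.19e-05 from limma).

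Of 20 genes tested that handle the lipid taken up by these receptors, 17 rose, 1 fell and 2 were not called (median log2 fold change 0.60). The share of 85.0% higher stood beside 14.7% of all genes tested and 24.8% of the abundant genes. The number of these lipid genes that rose was 14 with the marker median ratio. It was 9 when the libraries were centred on the median level of the macrophage markers. Of all 13266 genes tested, 1953 were higher as reported, 1030 with that ratio and 421 when centred. Fabp5, a fatty acid-binding protein gene, rose from 144 to 523 RPKM (log2 fold change 1.87, adjusted p = 0.000117 from limma). Abca1, the pump that exports cholesterol to apolipoprotein, rose from 30.2 to 65.8 RPKM (log2 fold change 1.11, adjusted p = 0.000281 from limma). The single gene of the list to fall was Pparg, a nuclear receptor that is known to induce Cd36, from 32.5 to 19.7 RPKM (log2 fold change -0.69, adjusted p = 8.32e-05 from limma).

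The lysosomal list, which includes the regulators Tfeb, Tfe3 and Mitf, had 16 genes tested. Of these 13 rose and 0 fell, beside 14.7% and 29.8% of all genes tested and 24.8% and 28.9% of the abundant genes. Lamp2, Npc2 and Tmem192 were not called, and the median log2 fold change was 0.42. With the marker median ratio 9 rose and 2 fell, when centred on the markers 5 rose and 1 fell, and without control replicate 3 the number that fell was 2. Of all 13266 genes tested, 1030 rose and 5980 fell with that ratio, and 421 rose and 3264 fell when centred. Without control replicate 3, 4142 of them fell. Psap, the precursor of the saposins that assist lysosomal lipid breakdown, rose from 4473 to 8445 RPKM (log2 fold change 0.92, adjusted p = 0.00172 from limma). After quantile normalization, however, Psap was called lower (log2 fold change -0.26, adjusted p = 0.00617 from limma).

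Of 13 genes of hemoglobin and heme handling tested, 8 rose, 2 fell and 3 were not called (median log2 fold change 0.55). That is 61.5% higher and 15.4% lower, beside 14.7% and 29.8% of all genes tested and 24.8% and 28.9% of the abundant genes. Without the filter on low values 4 rose, beside 1230 of all 36870 genes. Slc48a1, a heme transporter of the lysosome, rose from 111 to 228 RPKM (log2 fold change 1.05, adjusted p = 7.78e-05 from limma), and Hmox1, which breaks down heme, from 802 to 1552 RPKM (log2 fold change 0.96, adjusted p = 0.000284 from limma). Hp, the gene of haptoglobin, which delivers hemoglobin to Cd163, fell from 66.0 to 30.3 RPKM (log2 fold change -1.11, adjusted p = 0.000177 from limma).

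Of 17 genes of apoptotic cell uptake tested, 4 rose, 6 fell and 7 were not called (median log2 fold change -0.01). The shares, 23.5% higher and 35.3% lower, stood beside 14.7% and 29.8% of all genes tested and 24.8% and 28.9% of the abundant genes. They say nothing particular of the list, which also holds genes under 50 RPKM. Mfge8, which bridges dying cells to integrins, rose from 82.2 to 216 RPKM (log2 fold change 1.38, adjusted p = 7.15e-06 from limma), whereas Thbs1, the thrombospondin that binds Cd36, fell from 569 to 169 RPKM (log2 fold change -1.75, adjusted p = 0.000115 from limma). Of 16 tested genes linked with Mrc1 and Cd163 to alternative activation, 7 rose, 3 fell and 6 were not called (median log2 fold change 0.11). That is 43.8% higher and 18.8% lower, beside 14.7% and 29.8% of all genes tested and 24.8% and 28.9% of the abundant genes. F13a1, the gene of a clotting factor subunit made by macrophages, rose from 6.40 to 35.9 RPKM, and Klf4, a transcription factor, fell from 7.94 to 2.71 RPKM. Arg1, the arginase gene, rose to 2.59 RPKM (log2 fold change 0.64), while Retnla was at 0.0157 and 0.001 RPKM and was not tested.

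**Figure D4:**
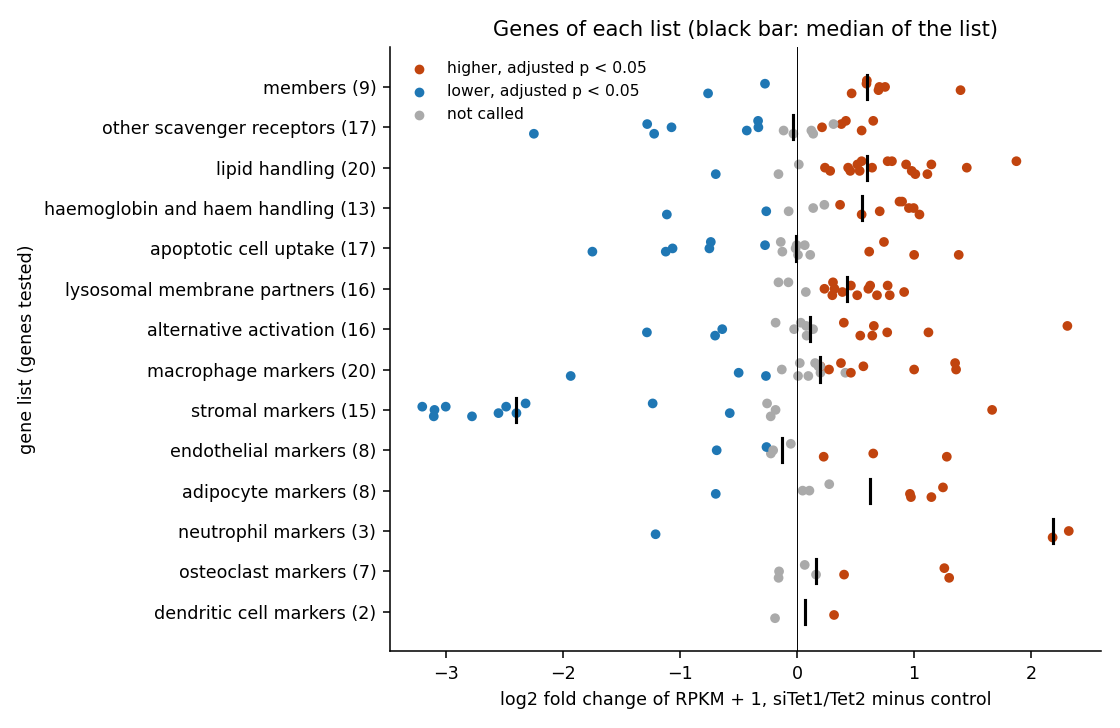
Log2 fold change of every tested gene of each list, siTet1/Tet2 minus control, with orange for higher and blue for lower at an adjusted p under 0.05, gray for not called and a black bar at the median of the list. Lipid handling (median 0.60) and lysosomal genes (0.42) lie mostly to the right, stromal markers (-2.40) to the left.

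Other cell types that carry these receptors were looked for by their markers. The counts of calls stand beside 14.7% higher and 29.8% lower over all genes tested. Some genes are in more than 1 list, with Stab2 and Lyve1 also among the other scavenger receptors and Fabp4 and Pparg also among the lipid genes. Npc1 and Npc2 are both lipid and lysosomal genes, and Lrp1 is in the other scavenger and heme lists. Itgb3 is in the apoptotic uptake and osteoclast lists. Laptm5 of the lysosomal list and Mertk of the apoptotic uptake list are also macrophage markers, and so were among those used for scaling. Of 12 endothelial markers 8 were tested, 3 higher and 2 lower, and their sum was between 6.32 and 6.70 RPKM in the control libraries and between 10.1 and 10.5 RPKM in the siTet1/Tet2 libraries. Pecam1 was at 0.175 and 0.377 RPKM, Vwf rose from 1.93 to 6.10 RPKM and Kdr fell from 1.58 to 0.604 RPKM. Vwf alone was most of the endothelial sum in the siTet1/Tet2 libraries. Of 10 adipocyte markers 8 were tested, 4 higher and 1 lower. Adipoq rose from 3.35 to 7.60 RPKM and Cidec, a lipid droplet gene, from 1.12 to 4.06 RPKM, and the sum of the list, most of it Fabp4, went from between 283 and 343 RPKM to between 574 and 729 RPKM. Of 10 osteoclast markers 7 were tested, 3 higher and none lower (0 genes), with Acp5 at 3.71 and 10.4 RPKM. The osteoclast sum was between 82.9 and 87.8 RPKM in the control group and between 171 and 189 RPKM in the siTet1/Tet2 group. Most of it was a single gene, Atp6v0d2, which rose from 57.6 to 139 RPKM. Of 10 neutrophil markers 3 were tested, 2 higher and 1 lower, with Mmp8 at 3.81 and 22.8 RPKM and Camp at 1.45 and 0.058 RPKM. S100a9 and Retnlg were at the lowest listed value in every library, and the sum of the neutrophil list was between 6.11 and 7.95 RPKM and between 29.1 and 41.3 RPKM. Most of this sum was Mmp8 and S100a8, the latter at 1.95 and 12.7 RPKM. Of 8 dendritic cell markers only Zbtb46 and Itgax were tested, and Itgax was higher, at 7.51 and 9.57 RPKM, in a list whose sum was between 7.32 and 9.10 RPKM in the control group and between 9.49 and 10.6 RPKM in the siTet1/Tet2 group. The part of these cell types in the changes of the scavenger receptors was not tested.

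The Tet enzymes act mainly on cytosines followed by guanine (CpG), so the CpG content of the promoters was described for the 8 of 10 genes with an entry in the RefSeq promoter table for GRCm38.p6, which holds 250 bases before and 50 after each start. In these 300 bases Marco had 0 CpG, Cd163 2, Cd36 and Mrc1 3 each, Cd68 4, Stab1 and Olr1 7 each and Scarb2 28. The Cd36 entry lies inside the annotated gene, and its last 30 bases were found in no GENCODE M21 transcript of Cd36, unlike those of the other 7 entries, so its start is uncertain. The median of the 32851 promoters in the table was 7, so that 5 of the 8 had fewer CpG than the median promoter, 2 as many and 1 more. The extremes, Marco and Scarb2, are printed because both rose. These are the 250 bases before the start, 5′ to 3′ on the strand of the gene, with each CpG in capitals.
Marco, chr1:120505025-120505274, minus strand: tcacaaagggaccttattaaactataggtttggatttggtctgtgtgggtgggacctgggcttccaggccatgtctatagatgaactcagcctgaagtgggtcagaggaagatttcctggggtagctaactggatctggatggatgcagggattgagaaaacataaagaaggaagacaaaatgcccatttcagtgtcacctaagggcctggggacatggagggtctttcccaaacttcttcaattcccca
Scarb2, chr5:92505658-92505907, minus strand: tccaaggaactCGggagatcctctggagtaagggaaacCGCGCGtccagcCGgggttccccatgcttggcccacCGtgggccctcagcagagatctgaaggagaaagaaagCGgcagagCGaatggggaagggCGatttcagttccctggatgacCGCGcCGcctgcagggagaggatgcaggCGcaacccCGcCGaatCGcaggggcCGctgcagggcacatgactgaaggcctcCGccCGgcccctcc
No CpG is in the Marco sequence, whereas 19 of those of Scarb2 are in the part shown.

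Letters of macrophage and stress factors were searched on both strands of the same 300 bases. GAGGAA, a core of the sites of the macrophage factor PU.1, was in 5 of the 8 promoters (28.3% of all promoters), 3 times in Mrc1, 2 times in Cd68 and 1 time each in Marco, Stab1 and Olr1. TGANTCA, the AP-1 motif, was in Cd68 (2 times) and Olr1 (1 time), and in 7.81% of all promoters. The core of interferon response elements and CACGTG, the E-box of TFEB and MITF, were in none of the 8 (0 genes) and in 3.44% and 7.15% of all promoters. No match overlapped a match of another motif. The promoters with the most matches follow, from 1 gene that fell and 1 that rose, with GAGGAA or its reverse complement and TGANTCA in capitals. The second GAGGAA match of Cd68 is after the start and not in the part printed.
Mrc1, chr2:14229164-14229413, plus strand: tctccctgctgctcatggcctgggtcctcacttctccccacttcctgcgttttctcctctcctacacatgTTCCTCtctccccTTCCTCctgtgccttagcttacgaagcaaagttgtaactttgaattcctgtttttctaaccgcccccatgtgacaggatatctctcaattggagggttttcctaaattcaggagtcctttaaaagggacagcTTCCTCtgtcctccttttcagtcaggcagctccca
Cd68, chr11:69666171-69666420, minus strand: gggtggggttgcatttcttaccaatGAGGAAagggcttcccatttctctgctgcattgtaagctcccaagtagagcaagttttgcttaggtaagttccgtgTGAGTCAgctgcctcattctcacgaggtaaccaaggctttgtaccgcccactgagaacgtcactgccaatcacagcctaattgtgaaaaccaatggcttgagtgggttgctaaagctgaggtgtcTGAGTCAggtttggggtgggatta
A match describes letters and not a bound site. Both directions of change occurred among the genes with GAGGAA, since Mrc1 fell and Marco, Stab1 and Cd68 rose.

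**Figure D5:**
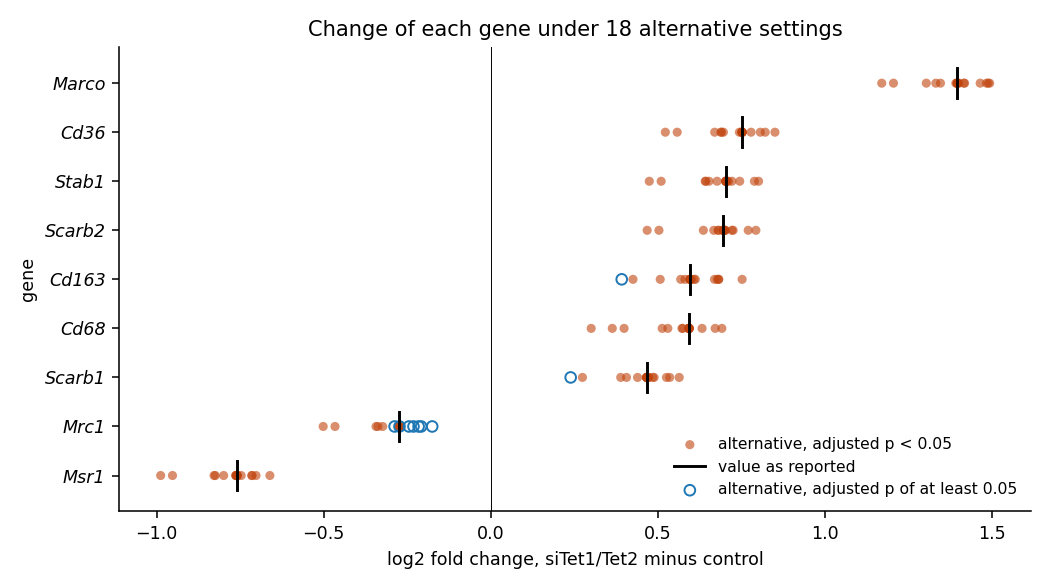
Log2 fold change of each tested gene, siTet1/Tet2 minus control, as reported (black bar) and under 18 alternative settings, filled where the adjusted p from limma was under 0.05 and open where it was not. Each gene stays on its side of 0, and open points are found for Mrc1, Cd163 and Scarb1, with Mrc1 running from -0.50 to -0.18.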

How the data were processed

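RNA-seq libraries of total RNA (NEBNext Ultra kit, paired-end reads, Illumina HiSeq) from 3 control and 3 siTet1/Tet2 BMMSC samples were used. With DNASTAR Lasergene the authors removed adaptors, aligned reads to GRCm38 and assembled transcripts, and they deposited linear RPKM values, which their methods call FPKM. Strand use, annotation release and the handling of reads matching several places are not given in the sources used here. The deposited column of the authors' own p-values was not used.

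For 37 symbols listed more than once the most abundant row was used. The 13266 genes averaging 0.1 RPKM or more were compared as log2(RPKM + 1) with limma 3.58.1 in R 4.3.3 (lmFit, eBayes with trend, two-sided) and Benjamini-Hochberg adjustment over all of them. The procedure was also run on simulated data in which few genes changed. In these data 44.5% of genes were called, so that run does not vouch for the calls made here. Depth was estimated in Python 3.11.15 from the low values of single-transcript genes of GENCODE M21, which also gave positions, so no count test was run. Adgre1 and Adgrb1 were matched by their older symbols.

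The genes examined, the gene lists and the rule for named genes were chosen with earlier results of these data known. The rule named all 10 receptors, the called gene with the largest increase and decrease in each list, 13 genes of fixed role, 1 of which is not reported here or counted in its list, and the 5 genes most like Msr1. The lists covered other scavenger receptors, lipid, heme and lysosomal genes, apoptotic cell uptake, alternative activation and markers of 7 cell types. Alternatives were pseudocounts of 0.1 and 0.01, no filter or a mean of at least 1 RPKM, 5 scalings, eBayes without trend, the replicate block, summed rows, the ratio of group means as the fold, and each library left out. The reported fit compared the groups without pairing, and same-numbered libraries were treated as pairs in the replicate block only. Their deviations from the group means correlated across genes at r = 0.149, 0.117 and 0.462. This pairing rests on the values alone. Control 1 with siTet1/Tet2 2 (r = 0.332) and control 2 with siTet1/Tet2 1 (r = 0.205) correlated more than the same-numbered libraries 1 and 2.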

Additional observations from a re-analysis of the deposited data

How the results depend on the processing

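Msr1, Marco, Cd36, Scarb2, Stab1 and Cd68 were called in the same direction by limma in all 18 alternatives run, with a highest adjusted p of 0.0463 (Cd68). Cd163 and Scarb1 lost the call when each library was centred on the median level of the macrophage markers (adjusted p = 0.210 and 0.239). That median is the level of 1 gene in each library and was 0.49 below the mean of the libraries on the log2 scale in control replicate 3, which is why the median ratio was added. Of the genes called, 9 as reported, the number lower was 2, and it became 1 with no filter on low values, median ratio scaling or quantile normalization, because Mrc1 lost its call. It ranged from 1 to 2 with one replicate left out, and the adjusted p of Mrc1 over all alternatives reached 0.208. The median ratio scaling thus gave 7 higher and 1 lower, and 2697 higher and 3108 lower of all 13266 genes tested. The replicate block, that is the pairing of same-numbered libraries, gave 7 higher and 2 lower and changed no call of the 9 genes. Over all genes tested the block gave 2248 higher and 4468 lower. As reported these were 1953 and 3952, and after quantile normalization 3589 and 2640. Without the filter 1230 of 36870 genes were higher and 2514 lower. With one replicate left out between 3016 and 4142 genes were lower. Emr1 gained a higher call with the block (adjusted p = 0.0360), median ratio scaling (0.0174) and quantile normalization (0.00444). Marco alone passed the fold change of 2 in every alternative, also by the ratio of the group means.

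Over all genes tested the lower share of calls was 66.9%, and 74.2% with the same sum (TPM), 53.5% after median ratio scaling, 42.4% after quantile normalization, 88.6% centred on the macrophage markers and 85.3% with their median ratio. The median of all genes moved from -0.09 to 0.05 with quantile normalization and to -0.26 when centred on the markers.

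Of the other named genes, Psap turned to -0.26 after quantile normalization and was called lower there (adjusted p = 0.00617 from limma). Genes without a call also changed sign: Emr1 (-0.0284 when centred), Ptprc (-0.0539 with TPM, -0.22 when centred, -0.18 with the marker median ratio and between -0.0728 and 0.0882 with one replicate left out) and Tet3 (-0.087 when centred and -0.0507 with the marker median ratio). The cause was not tested. Olr1 was tested only without the filter (adjusted p = 0.132). The unknown depth limits what can be said of genes near 0.01 RPKM.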
